A study of Mus musculus with 12 samples.

Results

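Across 12 Agilent mouse oligonucleotide arrays, 177 genes (180 array spots) differed from vehicle in the same direction by at least 1.5-fold with pioglitazone, with telmisartan and with irbesartan. They were found by a rule on the ratios themselves. Each array was turned to drug over vehicle on the log2 scale, and a spot was taken where it had 1 gene symbol, values on at least 3 arrays of each drug, and a mean of 0.585 or more with each of the 3 drugs, or of -0.585 or less with each. Of 22393 spots, 18218 had 1 gene symbol, and 15209 of these (13945 genes) had enough values to be eligible. The rule chose 69 spots (68 genes) that were higher with all 3 drugs, 0.454% of the eligible spots. It chose 111 spots (109 genes) that were lower with all 3, 0.730% of them. Since the ratios chose the members, the drug-over-vehicle values below are a description and carry no test.

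Cultured mouse cells, of a type the labels do not name, were treated with 1 of the 3 drugs or with vehicle. Each array compared drug RNA with vehicle RNA in 2 channels, each side pooled from 3 cultures, and 4 arrays were run per drug. The drug was in channel 1 on arrays 1 and 3 of each drug, and in channel 2 on arrays 2 and 4. Dose, time, genotype and strain are not given in the labels, so the drugs were compared as applied and not at matched doses. Whether a drug's 4 arrays drew on 1 RNA pool, or the 3 drugs on 1 vehicle RNA, is not stated either, so the spread between arrays may be technical and the 3 drugs' values for a gene may not be independent. Between 7.47% and 20.17% of spots on an array were empty, and no signal over background is known.

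Pioglitazone is a thiazolidinedione, an agonist of PPAR-gamma. This nuclear receptor pairs with RXR on DNA and switches on genes for fatty acid uptake, fat storage and fatty acid burning in fat cells. Telmisartan and irbesartan belong to the sartans, which block the angiotensin II type 1 receptor and so lower blood pressure; some sartans are also partial agonists of PPAR-gamma. Both carry a biphenyl group, which ends in a carboxylic acid in telmisartan and in a tetrazole in irbesartan.

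No label states which channel stands above the ratio. The likely reading, used here, is channel 2 over channel 1. With it the pioglitazone arrays put 24 of 32 known PPAR-gamma targets above 0 and 8 below. They put 6 of 8 genes that thiazolidinediones repress in fat below 0. Past the rule's threshold were 13 targets above and 3 below, with pioglitazone means of -1.12 (Lpl), -0.95 (Adipoq) and -0.73 (Cidec). Of the repressed genes, 3 were past it below and 0 above. Since the lists were chosen with earlier results of these data known, these counts are no independent test of the reading. Under the other reading every "higher" below becomes "lower": 111 spots would be higher and 69 lower. The direction of those lists under pioglitazone is therefore no independent result.

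The promoters of the 5 members that make cholesterol or related lipids, or control their making, are shown because these genes were higher together and most are textbook targets of the transcription factor SREBP-2. They are given from RefSeq on GRCm38.p6, 250 bases before to 50 after the gene's start, 5′ to 3′ on the gene's strand. The genes are Hmgcs1 (chr13:119690101-119690400, plus strand), Idi1 (chr13:8885356-8885655, plus strand), Insig1 (chr5:28071162-28071461, plus strand), Lss (chr10:76531355-76531654, plus strand) and Nus1 (chr10:52417297-52417596, plus strand). Capitals mark CCAAT, which the factor NF-Y binds beside SREBP on many sterol genes, or ATTGG, the same box on the other strand. Sites for SREBP itself were not counted and are not marked.
Hmgcs1: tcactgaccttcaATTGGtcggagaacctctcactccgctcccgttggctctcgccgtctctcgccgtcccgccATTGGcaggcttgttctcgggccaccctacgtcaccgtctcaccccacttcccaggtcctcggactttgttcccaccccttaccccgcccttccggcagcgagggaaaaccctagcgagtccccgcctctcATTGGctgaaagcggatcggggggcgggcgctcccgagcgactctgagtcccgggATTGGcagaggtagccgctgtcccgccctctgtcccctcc
Idi1: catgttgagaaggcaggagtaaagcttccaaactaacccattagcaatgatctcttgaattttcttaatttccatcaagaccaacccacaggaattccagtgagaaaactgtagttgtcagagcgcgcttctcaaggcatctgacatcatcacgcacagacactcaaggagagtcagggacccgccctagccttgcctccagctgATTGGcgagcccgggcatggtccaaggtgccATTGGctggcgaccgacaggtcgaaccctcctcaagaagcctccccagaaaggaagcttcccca
Insig1: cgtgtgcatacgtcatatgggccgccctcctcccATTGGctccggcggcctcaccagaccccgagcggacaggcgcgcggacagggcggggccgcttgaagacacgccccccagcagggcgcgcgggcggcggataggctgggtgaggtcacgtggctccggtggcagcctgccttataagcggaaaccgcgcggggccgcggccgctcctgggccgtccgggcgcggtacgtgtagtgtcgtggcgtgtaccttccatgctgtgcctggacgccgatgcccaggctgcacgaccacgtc
Lss: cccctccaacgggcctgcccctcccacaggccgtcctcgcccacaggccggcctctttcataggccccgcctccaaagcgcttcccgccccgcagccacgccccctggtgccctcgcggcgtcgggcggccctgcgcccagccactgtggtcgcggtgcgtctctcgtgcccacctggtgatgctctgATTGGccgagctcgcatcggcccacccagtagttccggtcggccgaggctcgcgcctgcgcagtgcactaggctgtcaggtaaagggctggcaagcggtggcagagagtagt
Nus1: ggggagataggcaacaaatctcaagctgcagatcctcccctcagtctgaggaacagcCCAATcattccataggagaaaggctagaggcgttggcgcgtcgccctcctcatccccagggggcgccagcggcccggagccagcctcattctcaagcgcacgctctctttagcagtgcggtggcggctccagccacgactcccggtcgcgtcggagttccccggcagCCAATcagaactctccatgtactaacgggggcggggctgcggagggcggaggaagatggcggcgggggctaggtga
CCAAT was found on either strand in all 5, with 4 copies in Hmgcs1, 2 in Idi1 and Nus1, and 1 in Insig1 and Lss. It was also in 18 of the 21 promoters of eligible genes of the cholesterol list (85.7%), member or not, against 37.4% of all 32851 promoters of the table. The table held a promoter for 142 of the 177 member genes, some with several, and the other members are not in the shares that follow. Of these promoters, 40.0% of 75 for higher members and 30.0% of 120 for lower members held it, which is near that share. AAAGGTCA, the downstream part of the PPAR response element, was in 0 of the 75 promoters of higher members, in 1 of the 120 of lower members and in 1.51% of all promoters. A match is a description of letters in a short window and not a binding site.

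The higher members were led by Elovl3, which encodes an elongase of very long fatty acids that is abundant in brown fat. Its log2 ratios were 2.38, 2.89, 2.46 and 2.85 on the 4 pioglitazone arrays, 2.24, 2.32, 2.01 and 2.17 on the telmisartan arrays, and 2.43, 2.58, 2.46 and 2.60 on the irbesartan arrays. All 12 arrays were above 2, every pioglitazone array was above every telmisartan array, and the irbesartan arrays lay among the pioglitazone ones. Its means were 2.64 ± 0.26, 2.19 ± 0.13 and 2.52 ± 0.09 with pioglitazone, telmisartan and irbesartan. Here and below, errors are SDs between arrays (n = 4), and sets of 3 values follow that order of the drugs.

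Krt23, a keratin gene, came next. It read 2.45, 2.58, 2.85 and 2.45 with pioglitazone, 1.62, 1.32, 1.47 and 1.75 with telmisartan, and 1.5, 1.11, 1.06 and 1.32 with irbesartan. The pioglitazone arrays stood clear of the rest, and the ranges of the sartans overlapped. Pdk4 encodes a kinase that shuts off pyruvate dehydrogenase and so spares glucose. It read 1.99, 2.00, 2.11 and 2.08 with pioglitazone, 1.08, 0.82, 1.15 and 0.99 with telmisartan, and 0.95, 0.76, 0.97 and 0.77 with irbesartan. It showed the same layout, with pioglitazone apart and the sartans overlapping.

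**Figure D1:**
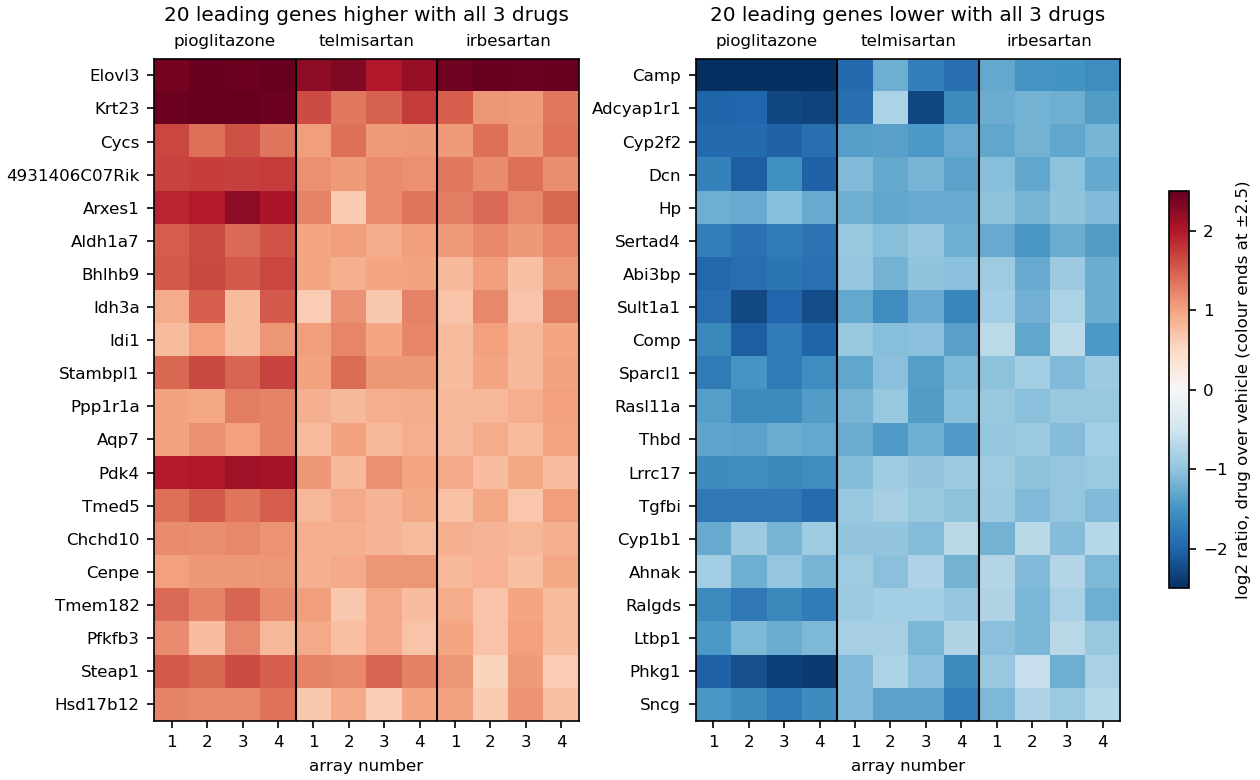
Log2 ratio of drug over vehicle (colour) on each of the 12 arrays (columns, 4 per drug) for the 20 leading genes (rows) in each direction, ranked by the smallest of their 3 drug means. Every cell keeps the sign of its panel, and the pioglitazone columns are mostly the darkest.

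Of the 32 eligible genes in the list of PPAR-gamma targets, 9 were higher members (28.1%, against 0.488% of all eligible genes) and 0 were lower members. Besides Elovl3, Krt23 and Pdk4 they were Arxes1 (means 2.05, 1.11 and 1.33), which is needed for fat cell formation and has a near-identical neighbour, Arxes2, that could share its probe, and Fabp5 (1.47, 0.69 and 0.85), a fatty acid carrier of the cytosol. Aqp7, the glycerol channel of fat cells, had means of 1.11, 0.88 and 0.88, and Cd36, the fatty acid transporter, had 1.00, 0.67 and 0.63. Pck1 and Gpd1, which supply glycerol 3-phosphate for triglyceride, had 0.98, 0.70 and 0.70, and 0.63, 0.64 and 0.72. The list's medians over all 32 genes were 0.35, 0.15 and 0.16, and those of all eligible genes were 0.00, 0.01 and 0.00. Several classical targets were not members. Fabp4, the fat cell's fatty acid carrier, had means of -0.34, -0.32 and -0.09, and Adipoq, for adiponectin, had -0.95, -0.44 and -0.37. Olr1, a scavenger receptor gene, read 3.45, 0.49 and 1.23 and missed the rule through telmisartan. Elovl3 and Pdk4 were also 2 of 13 eligible brown fat genes (15.4%; medians 0.24, 0.02 and 0.13). Of 6 eligible genes that thiazolidinediones repress in fat, 0 were members (medians -0.43, -0.26 and -0.07).

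In the cholesterol and isoprenoid list, 5 of 22 eligible genes were higher members (22.7%) and 0 lower. Idi1, which isomerises isopentenyl diphosphate, read 0.80, 1.03, 0.79 and 1.10 with pioglitazone, 1.04, 1.22, 0.99 and 1.23 with telmisartan, and 0.80, 1.02, 0.83 and 0.99 with irbesartan. The 3 ranges overlapped, and telmisartan had the highest mean, 1.12, against 0.93 and 0.91. Nus1, a subunit of the enzyme that makes dolichol, read 1.5, 1.56, 1.66 and 1.53, then 1.31, 1.21, 1.35 and 1.29, then 0.73, 0.81, 0.79 and 0.76. Its 3 groups did not overlap, and irbesartan was the lowest. Hmgcs1, which feeds HMG-CoA reductase, had means of 1.03, 0.64 and 0.60. Lss, which closes the sterol rings, had 0.91, 0.78 and 0.79. Insig1, which holds SREBP in the endoplasmic reticulum, had 0.95, 0.83 and 0.63. The list's medians over 22 genes were 0.53, 0.49 and 0.47. Among its other genes, Mvd (0.72, 0.68 and 0.54), Fdps (0.63, 0.60 and 0.56) and Dhcr7 (0.72, 0.55 and 0.59) missed the rule narrowly with 1 drug each or more, while Mvk had -0.10, 0.17 and 0.32, and Tm7sf2 lay near 0 with each drug (-0.04, -0.03 and -0.04).

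Mitochondrial genes were spread over several lists. Cycs, for cytochrome c, was a member at both of its spots, with means of 1.49, 1.14 and 1.23 at one spot and 1.68, 0.96 and 1.26 at the other. Ndufab1, a carrier subunit of complex I, had 0.78, 0.68 and 0.69. These made 2 of 54 eligible oxidative phosphorylation genes (3.70%), a list whose medians were 0.36, 0.24 and 0.26. In the citrate cycle list 2 of 21 genes (9.52%) were members: Idh3a, a subunit of isocitrate dehydrogenase (1.19, 0.92 and 0.98), and Cs, citrate synthase (0.83, 0.81 and 0.69). In the fatty acid oxidation list 2 of 21 were: Hadhb of the trifunctional protein (1.05, 0.59 and 0.66) and Slc25a20, the carnitine carrier of the inner membrane (0.89, 0.61 and 0.79). Timm8a1, an import chaperone, was the single member among 36 genes of mitochondrial translation and import (1.04, 0.62 and 0.67).

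Other mitochondrial members were in none of the lists. Chchd10, of the cristae, had means of 1.17, 0.86 and 0.86. Car5b, a mitochondrial carbonic anhydrase, had 0.79, 0.73 and 0.69, and Apoo, a part of the cristae complex, had 0.93, 0.75 and 0.62. Mcur1, a regulator of calcium uptake, had 1.02, 0.68 and 0.65, and Aldh18a1, for proline synthesis, had 0.73, 0.66 and 0.67. Idh3a was among the members that depended most on channel order: it read 0.93 and 0.80 on pioglitazone arrays 1 and 3 against 1.49 and 1.53 on arrays 2 and 4. The telmisartan and irbesartan arrays showed the same alternation.

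**Figure D2:**
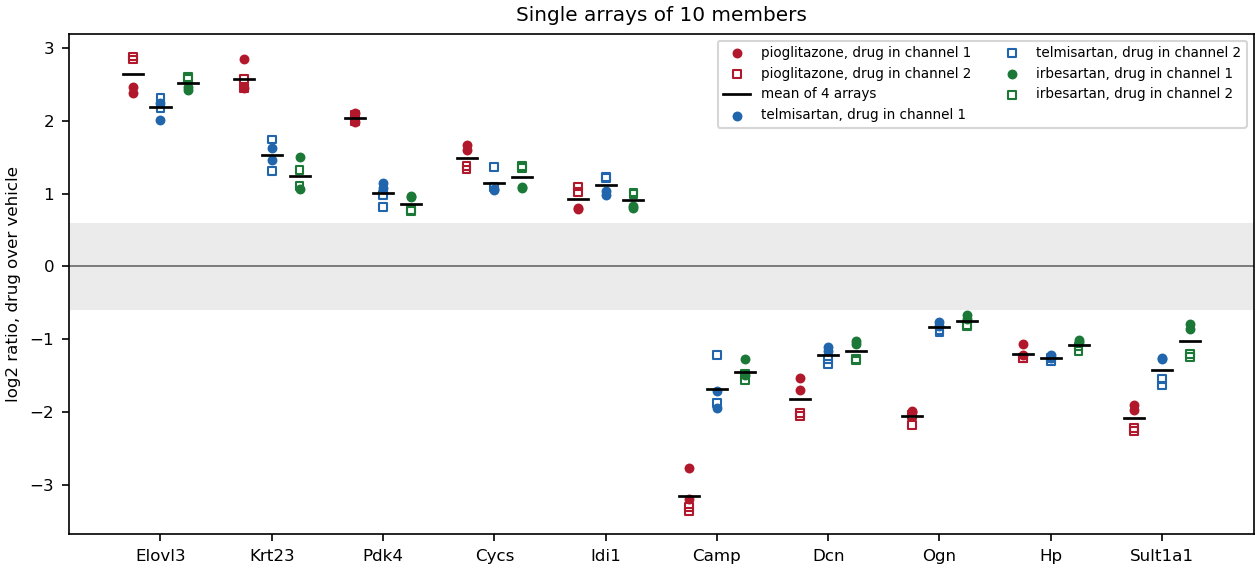
Log2 ratio of drug over vehicle for 10 members, each point an array (filled, drug in channel 1; open, drug in channel 2) and each bar the mean of the 4 arrays of a drug; the grey band marks values inside the rule's threshold of 0.585. Elovl3 lies above 2 on all 12 arrays, and the pioglitazone points of Krt23, Pdk4, Camp, Ogn and Sult1a1 stand apart from those of the sartans.

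Among lipid genes outside the lists, Gpat3, which starts glycerolipid synthesis, had 0.82, 0.92 and 0.76, and Hsd17b12, a reductase of the fatty acid elongation cycle in which Elovl3 also acts, had 1.25, 0.81 and 0.88. Hcar2, the niacin receptor that curbs lipolysis, had 0.76, 0.70 and 0.70, with a wide SD of 0.53 on the irbesartan arrays. Sgms2, a sphingomyelin synthase, had 0.98, 0.81 and 0.67. Pfkfb3, which makes the activator of phosphofructokinase, was the member among 17 glycolysis genes (1.00, 0.84 and 0.88). Asns, for asparagine synthetase, and Mthfd2, of mitochondrial folate metabolism, were 2 of 18 genes in the Atf4 list (11.1%), with 0.96, 0.80 and 0.64 and with 0.90, 0.72 and 0.73.

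Ero1a, an oxidase that helps to form disulfide bonds in the endoplasmic reticulum, was the member among 21 genes of that compartment's chaperones and stress response (4.76%). It read 0.71, 0.74, 0.64 and 0.82 with pioglitazone, 0.99, 1.12, 1.05 and 1.33 with telmisartan, and 0.92, 1.20, 0.97 and 1.13 with irbesartan. All sartan arrays were above all pioglitazone arrays, the reverse of most members. Cenpa and Cenpe, both of the centromere and kinetochore, were 2 of 32 cell cycle genes (6.25%), with means of 1.24, 0.85 and 0.73 and of 1.07, 1.01 and 0.85.

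The drug metabolism list gave members in both directions. Aldh1a7, an aldehyde dehydrogenase (1.53, 1.00 and 1.14), and Cbr3, a carbonyl reductase (1.69, 0.69 and 0.94), were higher. Lower were Sult1a1, a phenol sulfotransferase (-2.09, -1.43 and -1.02), Cyp2f2 (-1.95, -1.36 and -1.24) and Cyp1b1 (-1.05, -0.94 and -0.92), both cytochromes P450, and Gstm1, a glutathione transferase (-1.22, -0.91 and -0.67). That makes 2 of 27 genes higher (7.41%) and 4 lower (14.8%). Gstt3, a further glutathione transferase outside the list, had -0.99, -0.73 and -0.67.

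The remaining leading genes of the higher group began with 4931406C07Rik (1.71, 1.14 and 1.26), Bhlhb9 (1.60, 0.97 and 0.93) and Stambpl1, a deubiquitinase (1.55, 1.14 and 0.90). With them were Ppp1r1a, an inhibitor of protein phosphatase 1 (1.12, 0.89 and 0.89), and Tmed5, a cargo protein of the early secretory route (1.44, 0.90 and 0.86). Tmem182 (1.32, 0.86 and 0.85) and Steap1, of the STEAP family (1.52, 1.29 and 0.84), complete these. The others included Ung, which removes uracil from DNA (1.27, 0.93 and 0.79), St3gal6, a sialyltransferase (1.28, 0.77 and 0.96), Hprt, of purine salvage (1.00, 0.75 and 0.67), Casp8, a caspase of death receptors (0.91, 0.67 and 0.61), Noct, which removes phosphate from NADPH (1.08, 0.71 and 0.88), and Serpinc1, for antithrombin (1.07, 0.67 and 0.80). Gng2, Plpp5, C9orf72, Niban1, Rgl1, Phlda1, Cdr2, Eif1ad, Prelid2, Sgcd, Arl14ep, Atl3, Elavl1, Gpcpd1, Mcrip2, Tcea1 and Vhl complete the group, with means between 0.59 (Mcrip2, telmisartan) and 1.18 (Gpcpd1, telmisartan).

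The higher group as a whole had median means of 1.00, 0.80 and 0.73, and 5 of its 69 spots reached 2-fold with all 3 drugs. In 68 of the 69 spots every measured array was above 0. The exception was Vhl, for the ubiquitin ligase that marks HIF: telmisartan array 2 read -0.02, while the other telmisartan arrays read 1.05, 0.81 and 1.09.

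The lower members were led by Camp, for the antimicrobial peptide cathelicidin, which fat cells also make. It read -2.77, -3.31, -3.20 and -3.37 with pioglitazone, -1.94, -1.22, -1.71 and -1.88 with telmisartan, and -1.27, -1.48, -1.50 and -1.56 with irbesartan. Pioglitazone stood apart and the sartans overlapped. Adcyap1r1, for the receptor of the neuropeptide PACAP, was next, with means of -2.14, -1.64 and -1.26. Its telmisartan arrays were the most scattered of all lower members (SD 0.63), from -0.79 on array 2 to -2.28 on array 3.

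Extracellular matrix genes were the most numerous lower members in any list: 11 of 46 eligible genes (23.9%, against 0.782% of all eligible genes), with 0 higher. Dcn, for decorin, a small proteoglycan that coats collagen fibrils, read -1.70, -2.05, -1.53 and -2.01 with pioglitazone, -1.10, -1.28, -1.16 and -1.34 with telmisartan, and -1.07, -1.29, -1.02 and -1.28 with irbesartan. The sartan ranges nearly coincided, and pioglitazone lay below both. Ogn, a proteoglycan of the same family, read -1.98, -2.18, -2.0 and -2.04, then -0.81, -0.90, -0.76 and -0.87, then -0.67, -0.82, -0.72 and -0.81. The gap between pioglitazone and the sartans was wider than any spread within a drug. Lum (-1.74, -0.85 and -0.73) and Aspn (-1.46, -0.77 and -0.86) are further proteoglycans of that family.

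The fibrillar collagen genes Col1a2 (-1.15, -0.84 and -0.83) and Col3a1 (-1.34, -0.82 and -0.73) were members, and Col1a1, with -1.14, -0.69 and -0.46, missed the rule through irbesartan. Fn1, for fibronectin, had -1.67, -0.80 and -0.82, Tgfbi, a TGF-beta-induced adhesion protein, -1.83, -0.94 and -1.03, and Comp, of cartilage and tendon, -1.87, -1.10 and -1.02. Abi3bp (-1.89, -1.05 and -1.08) and Sparcl1 (-1.64, -1.21 and -0.98) complete the 11. The medians of the 46 genes were -0.63, -0.33 and -0.26.

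Members that process or bind matrix lay outside the list. Pcolce, which helps to trim procollagen, had -1.15, -0.75 and -0.66, and Mmp14, a membrane collagenase, had -1.09, -0.68 and -0.70. The secreted proteases Adamts1 (-1.33, -1.12 and -0.82), Adamts5 (-1.45, -1.09 and -0.87) and Adamts6 (-1.32, -0.94 and -0.81) were all lower; Adamts6 was the 1 member without a value on every array. Ltbp1, which stores latent TGF-beta in the matrix, had -1.23, -0.89 and -0.96, and Lamb2, a laminin chain, had -0.70, -0.63 and -0.67.

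Of 13 eligible fibroblast and preadipocyte markers, 7 were lower members (53.8%) and 0 higher, and the list's medians were -1.03, -0.61 and -0.64. Pdgfra, the PDGF receptor of fat precursors, read -1.50, -1.32, -1.57 and -1.24 with pioglitazone, -0.91, -0.75, -0.86 and -0.74 with telmisartan, and -0.92, -0.79, -0.88 and -0.86 with irbesartan. The sartans overlapped, and pioglitazone lay below both. The others were Fn1, Dlk1, which holds preadipocytes back from becoming fat cells (-1.03, -0.73 and -0.64), Vim, for vimentin (-1.0, -0.81 and -0.82), Gas6 (-1.36, -0.80 and -0.74), Gas1 (-0.89, -0.61 and -0.64) and Sfrp2, a Wnt inhibitor (-1.05, -0.70 and -0.59). Twist2, at 0.40, 0.33 and -0.04, was 1 of the markers that did not follow. With RNA of whole cultures, fewer cells of a type and less RNA per cell cannot be told apart, and the part of a shift in cell types in these results was not tested.

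Markers of mature fat cells did not mirror the fibroblast markers. Of 28 eligible genes of adipocyte identity, 0 were higher members and 2 were lower (7.14%, against 0.782% of all eligible genes). These were Mest (-0.83, -0.66 and -0.61), which tracks fat mass expansion in mice, and Sncg, for gamma-synuclein (-1.60, -1.38 and -0.88). The list leaned lower with pioglitazone and telmisartan, with medians of -0.34, -0.16 and -0.0035. Pparg itself had means of -1.09, -0.62 and -0.54 and missed the rule through irbesartan. Of the 6 macrophage, 9 endothelial and 13 muscle markers that were eligible, 0 were members, with list medians between -0.07 and 0.05 for every drug. The same held for the 9 genes of the renin-angiotensin system, with medians of -0.08, -0.02 and -0.03. Medians near 0 do not show single genes. Agtr2, for the angiotensin II type 2 receptor, had -0.98, -0.31 and -0.58, and Des, of the muscle list, had -0.83, -0.33 and -0.04. Cdh5, of the endothelial list, had -0.07, 0.02 and 0.59. Of 21 interferon response genes, 0 were members (medians -0.15, 0.19 and -0.16).

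**Figure D3:**
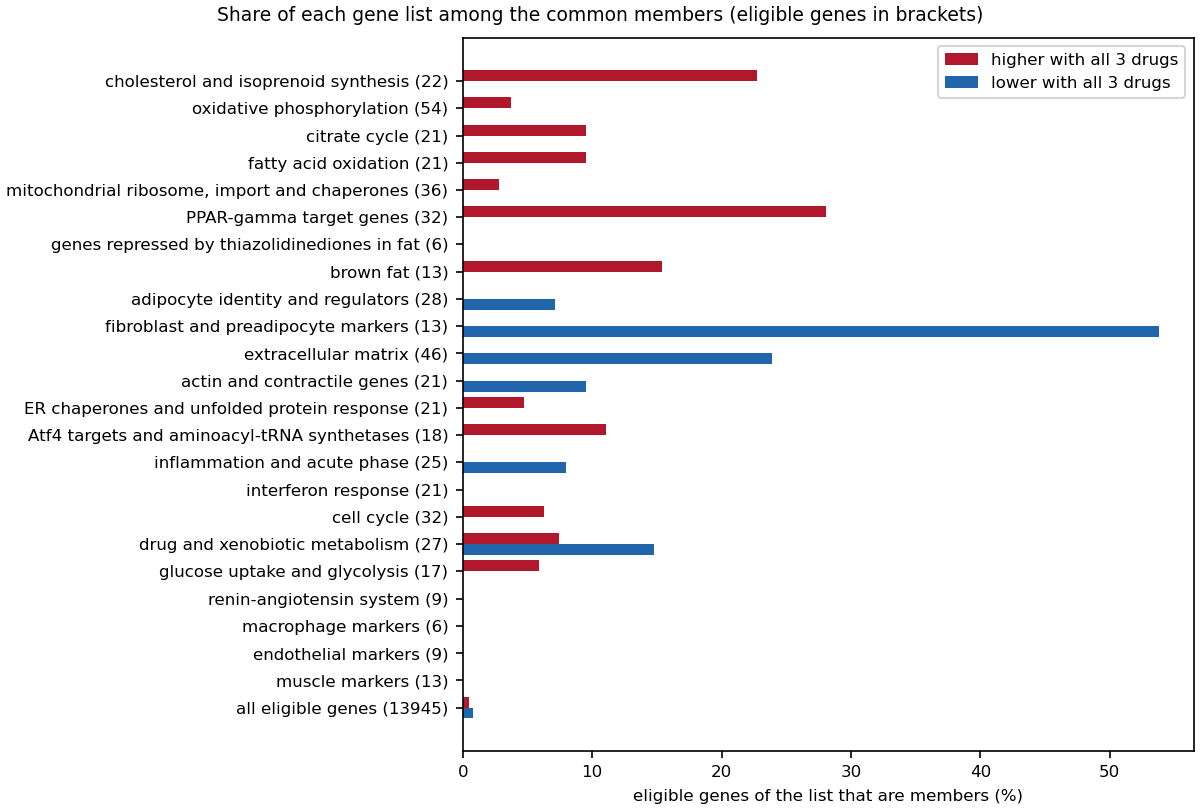
Share of the eligible genes of each list (number in brackets) that were common members, in percent, higher (red) or lower (blue) with all 3 drugs; the bottom bars give all 13945 eligible genes. Fibroblast markers (53.8% lower), PPAR-gamma targets (28.1% higher), matrix genes (23.9% lower) and cholesterol genes (22.7% higher) have the longest bars. The lists were chosen with earlier results of these data known, so the shares are a description.

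Hp and Camp were 2 of 25 inflammation and acute phase genes (8.0%) and both lower. Hp, for haptoglobin, which fat cells secrete, read -1.22, -1.26, -1.07 and -1.25 with pioglitazone, -1.22, -1.29, -1.26 and -1.26 with telmisartan, and -1.03, -1.16, -1.01 and -1.10 with irbesartan. The pioglitazone range overlapped both others, and every irbesartan array lay above every telmisartan array. Outside that list, S100a8, a subunit of the calprotectin complex, had -1.39, -0.82 and -0.63, Tlr2, a receptor for bacterial lipoproteins, had -1.09, -0.65 and -0.63, and Il33, an alarmin, had -1.58, -0.68 and -0.85. Ccl6, a chemokine gene, had -0.94, -0.69 and -0.73.

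Signalling genes were also among the lower members. Fst, for follistatin, and Inhbb, a subunit of activin B, which follistatin binds, had -1.58, -0.99 and -0.69 and -1.02, -0.66 and -0.78. Fgf7 had -1.15, -0.73 and -0.79, and Angpt1, the Tie2 ligand, had -0.78, -0.65 and -0.59. Lef1, a Wnt transcription factor, had -1.07, -0.72 and -0.60, and Zfp521, a repressor of fat cell commitment in mice, had -1.27, -0.62 and -0.67. Thbd, for thrombomodulin, had -1.29, -1.32 and -0.96, and Rgs2, which damps G protein signals from receptors such as that of angiotensin II, had -1.41, -0.81 and -0.62. Myl9, a myosin light chain, and Zyx, a focal adhesion protein, were 2 of 21 actin genes (9.52%), with -1.27, -1.13 and -0.70 and with -0.66, -0.64 and -0.68. Malat1, a nuclear noncoding RNA, had -1.0, -1.04 and -0.88.

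The other leading genes of the lower group were Sertad4 (-1.79, -1.06 and -1.34), Rasl11a (-1.49, -1.14 and -0.98), Lrrc17 (-1.57, -0.97 and -0.95), Ahnak (-1.05, -0.97 and -0.92 at one spot, -1.09, -0.76 and -0.62 at another), Ralgds, an activator of Ral GTPases (-1.69, -0.90 and -0.98), and Phkg1, the catalytic subunit of muscle phosphorylase kinase (-2.24, -1.13 and -0.89). Car3, a carbonic anhydrase abundant in fat cells, had -0.91, -0.76 and -0.88, Aqp5, a water channel, -1.5, -0.82 and -0.67, Igfbp7, a secreted IGF-binding protein, -0.84, -0.61 and -0.61, Slit2, the ligand of Robo receptors, -1.01, -0.81 and -0.60, and Tuba1a, an alpha-tubulin, -1.11, -0.79 and -0.81. Slc22a4, a carrier of ergothioneine, had -1.41, -0.89 and -0.65, and Prodh, the first enzyme of proline breakdown, had -1.10, -0.64 and -0.63. The rest were Olfml3, Tle6, Mxra8, Lgals2, Nrep, Strip2, Tnrc18, Nrbp2, Pik3ip1, Tns2, Mustn1, Ccn4, Abca8a, Serpinb1a, Slc29a1, Ddah2, Tspan4, Crip2, Errfi1, Fam102b, Cldn15, Gadd45b, Pdcd4, Plppr3, Tbc1d16, Foxf2, Nav1, Itm2b, Dpysl3, Art3, Maged2, Tspan17, Dock9, Aff3, Apoc1, Ehd3, Endou, Gsn, Lrp1, Nedd4, Pcdhga7, Rapgef3, S100a6, Stom, Syn2, Trafd1 and Xdh, with means from -1.64 (Nrep, pioglitazone) to -0.59 (Lrp1, irbesartan).

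The lower group had median means of -1.15, -0.81 and -0.76, 9 of its 111 spots reached 2-fold with all 3 drugs, and every measured array of all 111 was below 0. Of the 177 member genes, 56 were in at least 1 of the 23 lists and 121 in none.

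Some members were close on a chromosome. How many such pairs other genes form was not counted, so the pairs are a description. In 9 pairs at most 1 protein-coding gene of the RefSeq annotation lay between the members, and in all 9 both genes had the same direction. They were Adamts1 and Adamts5 on chromosome 16, Dcn and Lum on 10, Aspn and Ogn on 13, Ehd3 and Xdh on 17, Endou and Rapgef3 on 15, Gsn and Stom on 2, S100a6 and S100a8 on 3, Sfrp2 and Tlr2 on 3, all lower, and Bhlhb9 and Arxes1 on X, both higher.

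The members were a larger part of the sartan responses than of the pioglitazone response. The rule gives every drug the same members, so their shares follow from how many spots passed with each drug. Past the threshold were 311 spots higher (2.04%) and 605 lower (3.98%) with pioglitazone, 156 (1.03%) and 240 (1.58%) with telmisartan, and 115 (0.756%) and 187 (1.23%) with irbesartan. The common members were 22.2% and 18.3% of these for pioglitazone, 44.2% and 46.2% for telmisartan, and 60.0% and 59.4% for irbesartan. At the edge of the rule, Hadhb, Mcrip2 and Arl14ep were the last inside among higher spots, with smallest means of 0.59 each, and Tmem45b, Psph and Mgst3 the first outside, with 0.58 each. On the lower side Sfrp2, Angpt1 and Lrp1 were just inside at -0.59, and Cdc42ep1, Pde4b and Gstm2 just outside at -0.58.

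The rule set a floor for each drug but left the differences between drugs free, and these were tested with limma in 1 fit of all 12 arrays, with a dye term, on 17217 features. The same arrays chose the members, so the differences below describe spots already known to be past the threshold with each drug. Most eligible spots were past it with no drug. The shares and median sizes over all features are therefore no matched background, and whether members differ more than that choice brings was not tested. Since a drug's arrays may share 1 RNA pool, the intervals and p-values below may measure technical spread alone. Pioglitazone had the largest mean in 63 of 69 higher and 102 of 111 lower spots. Between pioglitazone and telmisartan, 122 of the 180 members passed an adjusted p of 0.05 (Benjamini-Hochberg over all features), against 14.7% of all features. Among higher members 40 were further up with pioglitazone (6.07% of all features lay on that side) and 3 further up with telmisartan (8.60%), Ero1a, Idi1 and Tcea1. Among lower members 78 were further down with pioglitazone and 1 with telmisartan, Nedd4. This count of 1 fell to 0 with the array number as a replicate block, without the dye term, with arrays scaled to the same spread, and without any 1 of the pioglitazone arrays or of telmisartan arrays 1, 3 and 4. Without the dye term the 3 became 1. The median size of the difference was 0.32 in members and 0.09 in all features.

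Between pioglitazone and irbesartan, 132 members passed, against 18.1% of all features. In higher members 44 were further up with pioglitazone (7.62% of all features on that side) and 1 with irbesartan, Ero1a (10.5%). In lower members 86 were further down with pioglitazone and 1, Aff3, with irbesartan, which became 0 without irbesartan array 1 or array 4. This split depended on scale: with every array scaled to the same spread, 61 members passed, 10 higher members further up with pioglitazone and 5 with irbesartan, and 43 lower members further down with pioglitazone and 3 with irbesartan.

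**Figure D4:**
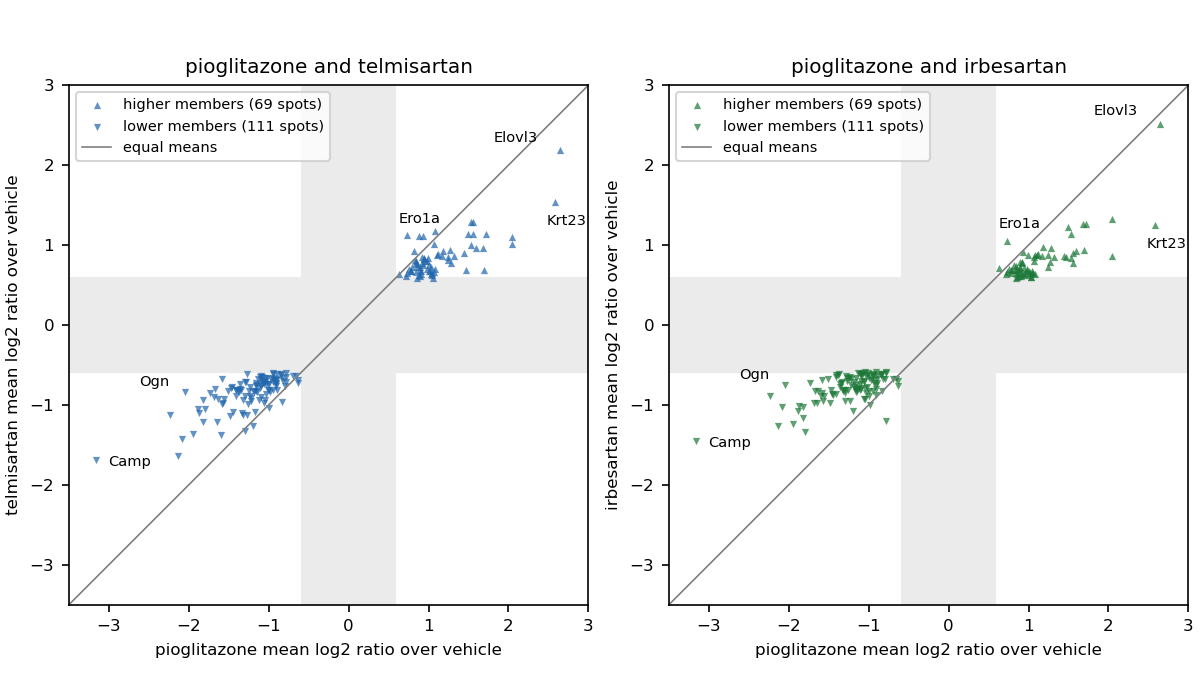
Mean log2 ratio over vehicle with pioglitazone (x axis) against telmisartan (left, y axis) or irbesartan (right, y axis) for the 69 higher and 111 lower spots; grey bands mark values inside 0.585, where the rule allows no member, and the line marks equal means. Most points lie nearer to 0 on the y axis than on the x axis, with Ero1a on the other side of the line.

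Camp differed most between pioglitazone and the sartans, by -1.47 from telmisartan (95% interval -1.84 to -1.11, limma adjusted p = 0.000277) and by -1.71 from irbesartan (-2.08 to -1.34, limma adjusted p = 7.55e-05). Ogn differed by -1.21 (-1.29 to -1.13, limma adjusted p = 4.81e-08) and -1.29 (-1.38 to -1.21). Krt23 was further up with pioglitazone by 1.04 (0.77 to 1.32) and 1.33 (1.06 to 1.61), and Pdk4 by 1.04 (0.91 to 1.16) and 1.18 (1.06 to 1.31). Phkg1 was further down by -1.11 and -1.35, and Cbr3 further up by 1.00 and 0.76. The next in the telmisartan comparison were Arxes1 (0.94), Fabp5 (0.79), Il33 (-0.90) and Tgfbi (-0.89). In the irbesartan comparison they were Nus1 (0.79), Arxes1 (0.72), Sult1a1 (-1.07) and Lum (-1.01). The Arxes1 difference from irbesartan did not pass with arrays scaled to the same spread (0.30, limma adjusted p = 0.188).

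The members that ran against this order were few. Ero1a was lower with pioglitazone than with telmisartan by -0.39 (95% interval -0.51 to -0.28, limma adjusted p = 0.00067) and than with irbesartan by -0.32 (-0.44 to -0.21). Idi1 was lower with pioglitazone than with telmisartan by -0.19 (-0.27 to -0.11). Tcea1, Nedd4 and Aff3 also ran against the order, in the comparisons named above. Elovl3, the leading higher member, kept to the order, further up with pioglitazone than with telmisartan by 0.46 (0.29 to 0.63). Its difference between pioglitazone and irbesartan, 0.13 (-0.04 to 0.30), did not pass.

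The sartans differed from each other in fewer members. Between telmisartan and irbesartan 28 of 180 members passed, against 9.38% of all features. The count was 5 without the dye term, 16 without telmisartan array 3 and 17 without irbesartan array 4, and 18 with the arrays of this pair alone. The median size of the difference was 0.08 in members and 0.08 in all features. Among higher members 9 were further up with telmisartan (4.96% of all features on that side) and 5 with irbesartan (4.42%). Among lower members 12 were further down with telmisartan and 2 with irbesartan. With arrays scaled to the same spread the split turned, to 3 against 18 among higher members and 1 against 14 among lower members, so no order of the sartans' strength is read from it. For 145 of the 152 members that did not pass, the whole 95% interval of the difference lay inside 0.585.

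**Figure D5:**
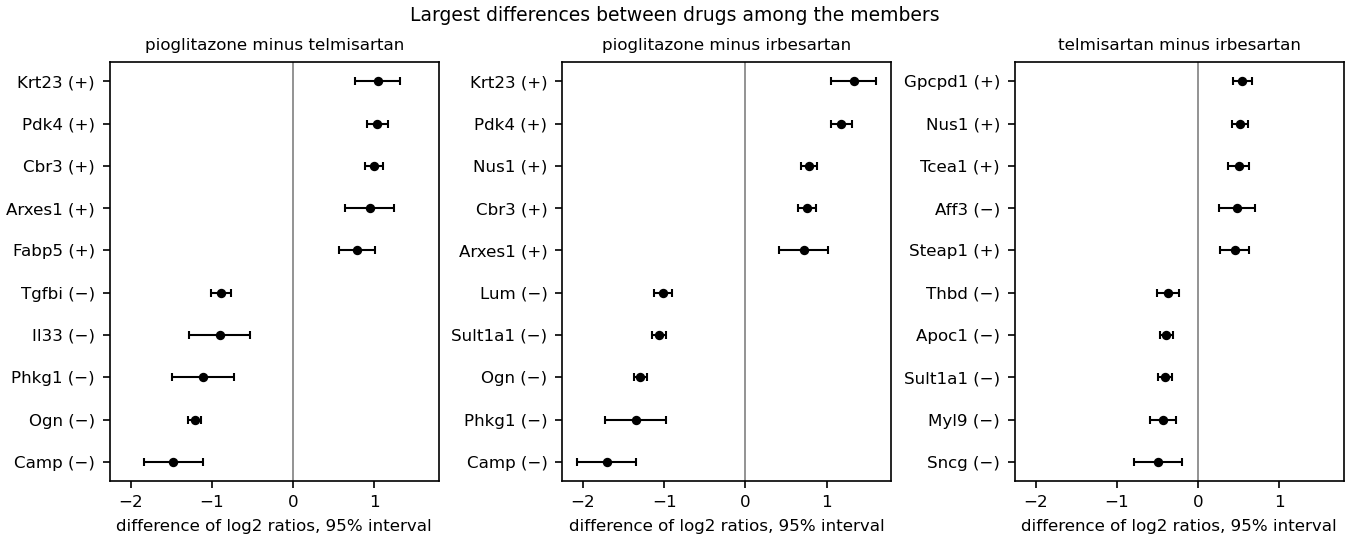
Difference of log2 ratios between drugs (points) with 95% intervals from limma for the 5 largest differences in each direction among members past the threshold; + marks higher and − lower members. Pioglitazone differs from the sartans by up to -1.71 (Camp) and 1.33 (Krt23), while telmisartan and irbesartan differ by at most 0.54 (Gpcpd1).

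Nus1 was the clearest difference between the sartans, further up with telmisartan by 0.51 (95% interval 0.42 to 0.61, limma adjusted p = 0.000205) and past the threshold in every alternative run. Tcea1, a transcription elongation factor gene, was further up with telmisartan by 0.50 (0.37 to 0.63, limma adjusted p = 0.00102), also in every alternative. Gpcpd1, a phosphodiesterase of phospholipid breakdown, differed by 0.54 (0.43 to 0.66), but its dye coefficient was the largest of all members (0.29) and without the dye term the difference did not pass (limma adjusted p = 0.301). Aff3 was further down with irbesartan by 0.48 (0.26 to 0.70), and it missed the threshold with the arrays of this pair alone (limma adjusted p = 0.066). Steap1 (0.45), Sult1a1 (-0.40), Myl9 (-0.43), Thbd (-0.37) and Apoc1, an apolipoprotein gene (-0.39), each failed in 1 or 2 alternatives, and Sncg (-0.50) in 13.

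Channel order left a trace in the members as in the rest of the array. The dye coefficient passed in 91 of 180 members, against 44.6% of all features, and was largest in Gpcpd1 (0.29), Idh3a (0.28) and Rgs2 (0.25). Each drug had 2 arrays of each order, so a constant dye effect cancels in its mean.

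The choice of members was repeated on part of the arrays. Chosen on arrays 1 and 2 of each drug, 68 spots were higher and 109 lower. On arrays 3 and 4, 61 of the 68 and 96 of the 109 were past the threshold again with all 3 drugs, and all 68 and all 109 had the same signs. Chosen on arrays 3 and 4, 72 were higher and 115 lower, and 61 and 97 of them were past the threshold again on arrays 1 and 2, all with the same signs. Leaving out each of the 12 arrays in turn, 142 of the 180 members were chosen every time, 56 higher and 86 lower. Since a drug's arrays may share 1 RNA pool, these counts may describe the repeat of the hybridisation and not of the cultures.

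A second probe of a member gene did not always give the same reading. Cycs, Ahnak and Pcdhga7 were members at 2 spots each. Of 8 further eligible spots of member genes, 7 had the member's sign with all 3 drugs. An eligible spot past the threshold with all 3 would itself be a member, so these spots fell short of that by definition. Syn2 (-0.91, -0.61 and -0.39) was past it with 2 drugs, Elavl1 (0.44, 0.63 and 0.31) and Trafd1 (-0.68, -0.43 and -0.24) with 1. A further Malat1 spot read -0.45, -0.55 and -0.47, the further Ahnak spots read -0.43, -0.29 and -0.33, and -0.31, -0.32 and -0.23, and an Atl3 spot read 0.30, 0.03 and 0.17. The third Pcdhga7 spot read 0.04, 0.04 and 0.06, against -1.01, -0.74 and -0.63 at a member spot. This gene shares its last exons with the other gamma protocadherins, so its spots may not read it alone. Other spots of member genes had too few values to be eligible. Adcyap1r1 read -0.49 with telmisartan and -0.02 with irbesartan there, and Abi3bp 0.18 with irbesartan. Cenpe read -0.16 with telmisartan and 0.01 with irbesartan, and Nav1 -0.08 with pioglitazone and 0.13 with irbesartan. Myl9 read -1.25 on 1 pioglitazone array.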

How the data were processed

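Drug and vehicle RNA were compared on 12 two-colour arrays, 4 per drug. The deposited table was taken to hold log10 ratios, a unit inferred from its values, since the labels state none; how the authors normalised the ratios is not given in the sources used here. Array medians lay near 0 and were kept. Ratios were converted to log2 and turned to drug over vehicle by the channel labels; genes came from GEO's platform annotation. Members and gene lists were chosen with earlier results of these data known. Of the spots, 471 control-like ones (no gene, the same sign in both channel orders) were left out.

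Differences between drugs were tested with limma 3.58.1 in R 4.3.3, with 3 drug coefficients and a shared dye coefficient over 12 arrays, two-sided, Benjamini-Hochberg over 17217 features within each comparison. The script was tested on simulated data. Named genes are the 20 leading in each direction, members in lists, the 5 largest differences per pair and side, spots near the threshold, further spots, dye-affected and scattered members; further members were added after their values were seen. Alternatives covered the threshold, averaging, array scaling, the dye term, a block by array number and each array left out.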

Additional observations from a re-analysis of the deposited data

Results flagged for a closer look

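Dixon's criterion flags about 1 in 20 groups of 4 independent normal values by chance. Channel order alternated within each drug's 4 arrays, so that rate is no exact background here. In 20 of 539 groups of 4 arrays of a member (3.71%), 1 array lay far from the other 3 by this criterion. Telmisartan array 2 was that array in 7 of them: Cycs (1.37), Lss (0.65), Adamts1 (-0.99), Fgf7 (-0.45), Crip2 (-0.46), Errfi1 (-0.85) and Gstm1 (-1.08). Fgf7 and Crip2 lay inside the threshold of 0.585 on that array, while their means stayed past it. On the other telmisartan arrays the values were Gpat3 (0.84, array 4), Col1a2 (-0.91, array 4), Col3a1 (-0.85, array 3) and Cldn15 (-0.71, array 1). On pioglitazone arrays they were Elavl1 (1.07, array 4), Tgfbi (-1.93, array 4) and Ndufab1 (0.84, array 2). On irbesartan arrays they were Gpat3 (0.79, array 2), Rasl11a (-1.05, array 2), Art3 (-0.66, array 2), Tle6 (-0.92, array 4), Angpt1 (-0.73, array 4) and Gsn (-0.86, array 3).

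Among spots without a single gene symbol, which the rule leaves out, 2409 had enough values and were not control-like. Of these, 8 were higher and 7 lower by at least 1.5-fold with all 3 drugs.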

How the results depend on the processing

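With a 2-fold threshold the members were 5 higher and 9 lower, 14 in all, and with channel 1 as numerator 111 higher and 69 lower. Leaving out 1 array gave 64 to 74 higher, 106 to 119 lower and 175 to 193 in all. The median of the arrays gave 188 members, scaled arrays 213 (174 of the 180 among them) and averaged repeat spots 175. Arrays with the drug in channel 1 alone gave 193 (138 of the 180), and in channel 2 alone 230 (147), settings chosen after seeing the data.

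Between drugs, leaving out 1 array gave 106 to 122 members for pioglitazone against telmisartan, 117 to 142 for pioglitazone against irbesartan, 16 to 40 for telmisartan against irbesartan (16 without telmisartan array 3, 17 without irbesartan array 4) and 83 to 97 for the dye. Scaled arrays left 61 for pioglitazone against irbesartan. For telmisartan against irbesartan, 5 passed without the dye term and 18 with the arrays of this pair alone; the cause was not tested. At an unadjusted p under 0.05, 136, 154 and 50 members passed. With the array number as a replicate block 115, 121 and 22 passed. Same-numbered arrays share channel order, and after the dye term their deviations correlated at -0.35 to 0.09, so the numbers were not taken as pairs. No named difference changed sign; over the alternatives they stayed past the threshold 577 times and fell short 23 times. Missing intensities leave signal over background unknown.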
